A study of Homo sapiens with 8 samples.

Results

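Expression of 10 genes of the NRF2 and glutathione pathway was followed in human neuroblastoma cell lines treated with the iron chelator ciclopirox. The genes were the regulator NFE2L2 and the antioxidant and detoxification genes NQO1, SLC7A11, GCLC, GCLM, TXNRD1, SRXN1, AKR1C1, GSTP1 and HMOX1. They were chosen by name, and each was taken from the probe set (a group of probes on the array that reads 1 transcript) annotated to that gene alone with the highest mean over all arrays. All 10 were found among 19774 genes with such a probe set, and all 10 lay above the level filter that left 14517 genes for testing.

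Total RNA was measured on 8 Affymetrix arrays, 1 for each of 4 cell lines under each treatment. SKNAS, NB1691, SKNBE2 and SKNAS/shHIF1a cells received vehicle or 2.5 µM ciclopirox, an antifungal drug that binds iron, and were collected after 48 h. SKNAS/shHIF1a is a stable derivative of SKNAS in which HIF1A is knocked down. This gene encodes the subunit of hypoxia-inducible factor that is degraded when oxygen is present. The labels do not say whether it is 1 clone, and a line with a control hairpin was not analysed here. The labels give SKNAS a c-Myc status and the other 3 lines, the derivative included, an N-Myc status. With 1 array per line and treatment, every error below is a spread between lines or arrays, which may be in part technical, and a difference within a line carries no test. Because SKNAS/shHIF1a derives from SKNAS, the 4 lines behind these errors are not all independent.

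NFE2L2 encodes NRF2, a transcription factor that the adaptor KEAP1 holds in the cytoplasm and delivers to the proteasome while cells are unstressed. Electrophiles and oxidants modify KEAP1, and NRF2 then pairs with small MAF proteins at antioxidant response elements in its target genes. The targets supply cysteine and glutathione, reduce quinones, thioredoxin and peroxiredoxin, conjugate electrophiles and break down haem. NRF2 is controlled mainly through its protein, so the NFE2L2 transcript is an incomplete measure of its activity.

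Values are log2 signals, on which a difference of 1 is a 2-fold difference, and the 8 arrays had medians of 3.47 to 3.52. HIF1A, the knocked-down gene, had levels of 11.71 under vehicle and 11.09 under ciclopirox in SKNAS/shHIF1a, against 12.25 and 11.94 in SKNAS, which did not pass the test (limma adjusted p = 0.257). MYCN was at 5.41 in SKNAS/shHIF1a under vehicle, against 2.77 in SKNAS, 12.05 in NB1691 and 12.48 in SKNBE2, so the derivative stood above its parent (2.47, limma adjusted p = 0.00928) and far below the other lines labelled N-Myc. MYC was at 9.86 and 9.23 in the derivative and 10.16 and 9.10 in the parent, against 2.66 to 3.28 in NB1691 and SKNBE2. Of 7 noradrenergic neuroblastoma markers, 6 stood above the filter level on every array. The exception was the tyrosine hydroxylase gene TH, at 3.15 to 3.59 in the SKNAS-derived lines. The mean of the noradrenergic markers was 6.55 to 7.52 on the SKNAS-derived arrays and 9.43 to 9.97 on the others. In contrast, means of the marker lists of other cell types were higher on the SKNAS-derived arrays. The mean of the 4 mesenchymal markers was 10.15 to 11.56 against 6.73 to 8.09, that of the 4 leukocyte markers 4.09 to 5.13 against 3.01 to 3.46, and that of the 4 epithelial markers 4.07 to 5.52 against 3.29 to 3.67. The 3 endothelial markers had means of 3.21 to 4.61 against 2.73 to 3.02. Of these, CDH5 lay between 2.67 and 3.11 on all arrays. The high values were in the derivative, EMCN at 6.74 under vehicle and PECAM1 at 5.46 under ciclopirox. In SKNAS these genes lay between 3.06 and 3.78. Within the leukocyte list the shift lay mainly in PTPRC, at 6.33 to 11.53 against 3.03 to 3.29, while CD14 and CD3E stayed between 2.57 and 3.35. Within the epithelial list it lay mainly in KRT18, at 6.69 to 10.87 against 3.08 to 3.38, while EPCAM was lower on the SKNAS-derived arrays (3.05 to 3.34 against 3.56 to 4.998) and CDH1 lay between 2.93 and 3.26 on all arrays. The part of these markers in the line differences below was not tested, and in bulk RNA fewer cells that express a gene and less of its RNA per cell cannot be told apart.

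The first comparison asked how the pathway differed between ciclopirox and vehicle. The 10 genes did not move together. HMOX1, which encodes the enzyme that opens haem, was higher under ciclopirox in all 4 lines. On their brightest probe sets the other 9 went up in some lines and down in others. The next AKR1C1 probe set was higher in all 4 lines (0.11 in SKNAS, 1.23 in NB1691, 0.06 in SKNBE2 and 2.06 in SKNAS/shHIF1a). So was another NFE2L2 probe set (0.34, 0.49, 0.49 and 0.21 in the same order). The cystine carrier gene SLC7A11 was higher by 2.93 in SKNBE2 and lower in NB1691 (-1.13). The hydroxysteroid dehydrogenase gene AKR1C1 was higher by 2.25 in SKNAS/shHIF1a and by 1.09 in NB1691. In the limma fit, in which each line served as a block, 0 of the 10 passed at an adjusted p under 0.05, as did 0 of all 14517 genes (0%, smallest adjusted p 0.121). At an unadjusted p under 0.05, 1 of the 10 passed, HMOX1, against 17.9% of all genes tested. The median of the 10 mean changes was 0.11, against -0.01 over all genes tested.

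**Figure D1:**
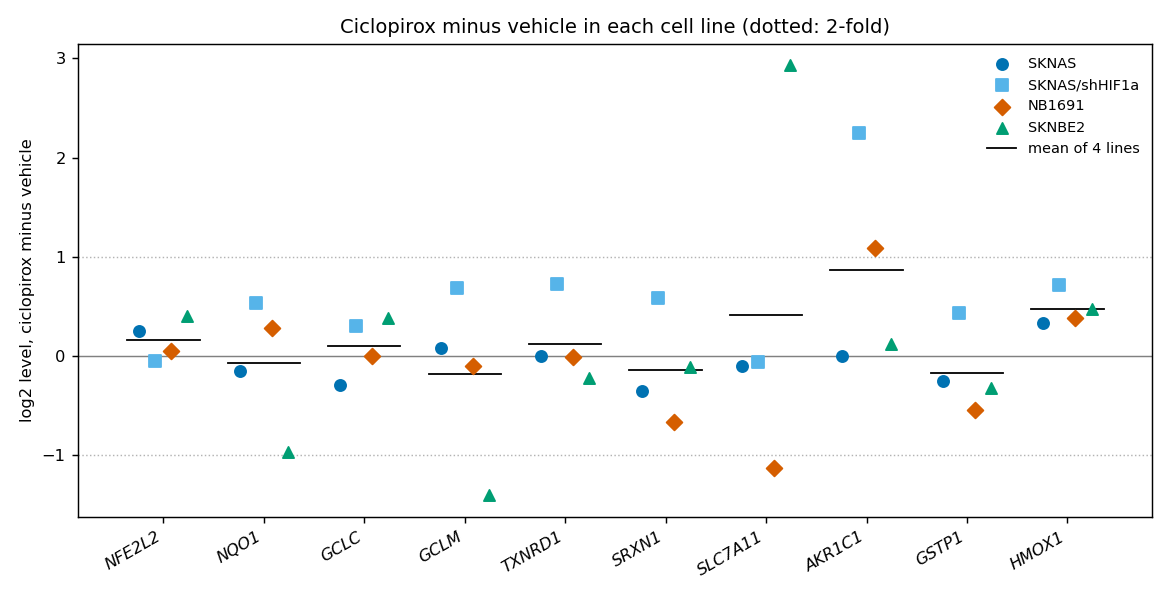
Difference in log2 level between the ciclopirox and the vehicle array of each line, for the 10 genes. Symbols are lines, horizontal bars are means of 4 lines and dotted lines mark a 2-fold difference. HMOX1 has all 4 symbols above 0, while SLC7A11 runs from -1.13 in NB1691 to 2.93 in SKNBE2.

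Within single lines few of the 10 differed by 2-fold or more. SKNAS had 0 in either direction, where 3.38% of all genes tested were at least 2-fold higher and 1.62% at least 2-fold lower. NB1691 had AKR1C1 higher and SLC7A11 lower, beside 3.31% and 5.12% of all genes. SKNBE2 had SLC7A11 higher and GCLM lower, beside 2.11% and 1.25%. SKNAS/shHIF1a had AKR1C1 higher and 0 lower, beside 5.52% and 4.31%. The 10 genes had a median change of -0.06 in SKNAS, -0.01 in NB1691 and 0.00 in SKNBE2, close to the medians of all genes (-0.02, -0.02 and -0.01). In SKNAS/shHIF1a the median of the 10 was 0.55 and that of all genes -0.03. There 8 of the 10 were higher under ciclopirox, against 4 of 10 in the parent, while 47.2% of all genes tested were higher in each of these lines. Some of these signs rest on values close to 0 in SKNAS, such as 0.00 for TXNRD1 and -0.01 for AKR1C1. GCLM counts as higher there at 0.08, while its other probe sets were lower. In SKNAS/shHIF1a the count includes GSTP1, at 3.41 and 3.85, near background.

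The second question was how the genes differed between lines, read from both arrays of each line in 1 fit with treatment as a covariate. SKNAS and NB1691 differed in 5 of the 10 genes, where 37.7% of all genes tested were called. SKNAS and SKNBE2 differed in 6 (30.9% of all genes), SKNAS/shHIF1a and NB1691 in 6 (37.2%), and SKNAS/shHIF1a and SKNBE2 in 6 (31.1%). NB1691 and SKNBE2 differed in 2 (25.1%), and SKNAS/shHIF1a and its parent in 2 (1.58%). Of these 27 calls, 16 held under every alternative tried, and the others are named gene by gene below.

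**Figure D2:**
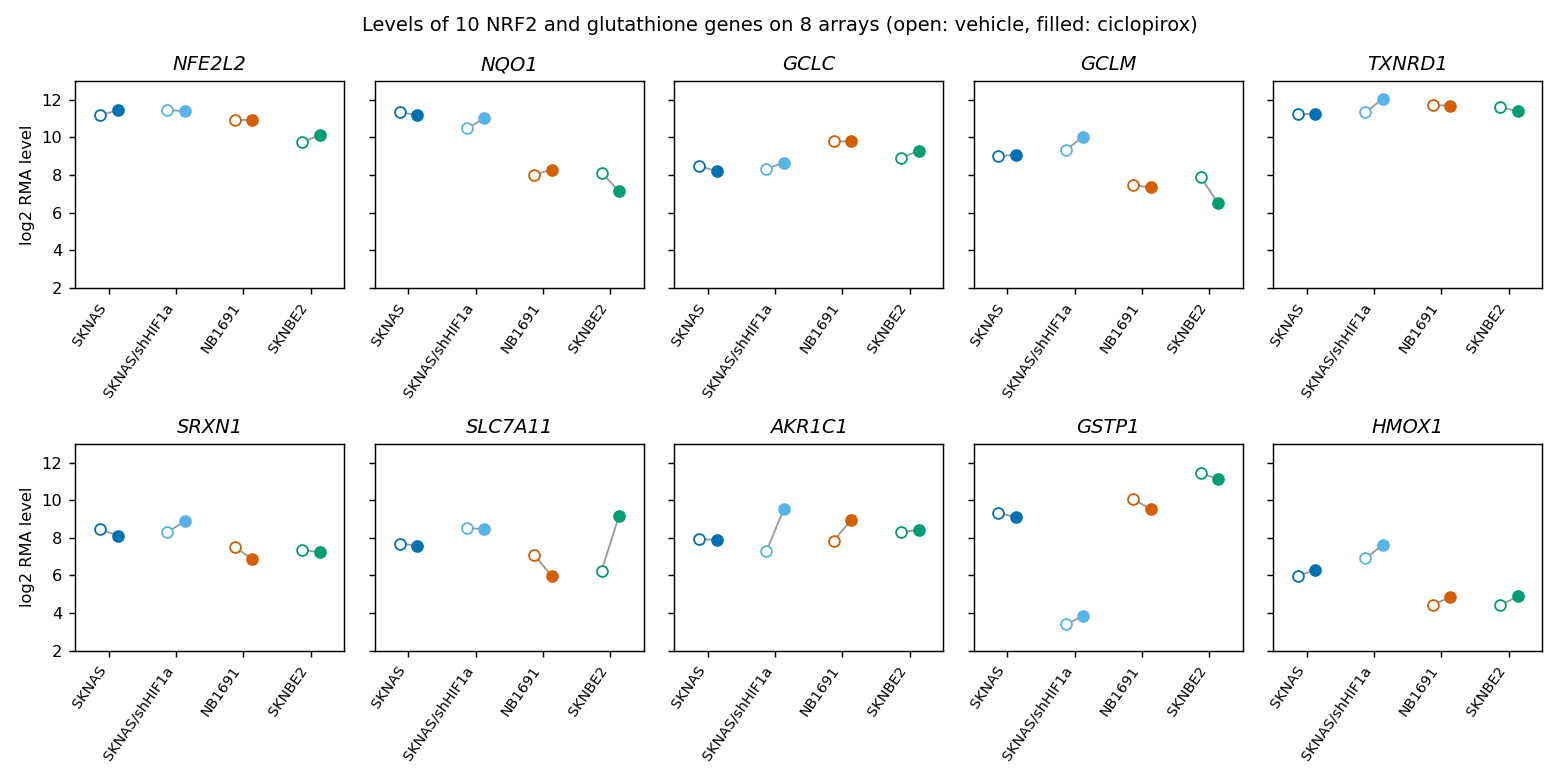
Level of each gene on each of the 8 arrays, as log2 RMA values on a common axis. Open circles are vehicle and filled circles ciclopirox arrays of the 4 lines. GSTP1 lies at 3.41 and 3.85 in SKNAS/shHIF1a and at 9.08 or higher on every other array, and NQO1 and HMOX1 are higher on all SKNAS-derived arrays than on those of NB1691 and SKNBE2.

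NFE2L2 had levels of 11.19 and 11.44 in SKNAS under vehicle and ciclopirox, 11.45 and 11.40 in SKNAS/shHIF1a, 10.91 and 10.95 in NB1691, and 9.74 and 10.14 in SKNBE2. Both SKNBE2 arrays were the lowest, and the other 6 lay within a narrow range. SKNBE2 was below SKNAS by 1.38 ± 0.18 (SE, 2 arrays per line, limma adjusted p = 0.00316), below SKNAS/shHIF1a by 1.49 ± 0.18 (adjusted p = 0.00248) and below NB1691 by 0.99 ± 0.18 (adjusted p = 0.0131). With the mean of the NFE2L2 probe sets, SKNBE2 minus SKNAS was -0.84, SKNBE2 minus NB1691 -0.57, and SKNAS/shHIF1a minus SKNBE2 0.96, all still called (limma adjusted p = 0.00766, 0.0313 and 0.00486). The difference from NB1691 ended without the vehicle array of NB1691 (limma adjusted p = 0.0541) or of SKNBE2 (adjusted p = 0.0841). The mean change under ciclopirox was 0.16 ± 0.13 (SE, n = 4 lines, limma adjusted p = 0.547), with a 95% interval of -0.16 to 0.48. The other NFE2L2 probe sets gave mean changes of -0.16, 0.39 and 0.07, so the sign depended on the probe set.

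NQO1, which encodes a quinone reductase and is a standard NRF2 target, separated the SKNAS-derived lines from the others. Its levels were 11.34 and 11.20 in SKNAS under vehicle and ciclopirox, 10.48 and 11.01 in SKNAS/shHIF1a, 8.01 and 8.30 in NB1691, and 8.12 and 7.15 in SKNBE2. No array of the SKNAS-derived lines overlapped those of the other lines. SKNAS was above NB1691 by 3.11 ± 0.36 (SE, 2 arrays per line, limma adjusted p = 0.00166) and above SKNBE2 by 3.63 ± 0.36 (adjusted p = 0.00113). SKNAS/shHIF1a was above NB1691 by 2.59 ± 0.36 (adjusted p = 0.00335) and above SKNBE2 by 3.11 ± 0.36 (adjusted p = 0.00205). SKNAS and SKNAS/shHIF1a did not differ beyond their spread, and neither did NB1691 and SKNBE2. Under ciclopirox NQO1 was lower in SKNBE2 (-0.97) and in SKNAS (-0.15) and higher in NB1691 (0.28) and SKNAS/shHIF1a (0.53). The mean was -0.08 ± 0.26 (SE, n = 4 lines, limma adjusted p = 0.900), and 0.22 without SKNBE2.

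Cystine uptake and glutathione synthesis come next in the pathway. SLC7A11 encodes the light chain of the cystine-glutamate exchanger, and its levels under vehicle and ciclopirox were 7.69 and 7.59 in SKNAS, 8.52 and 8.46 in SKNAS/shHIF1a, 7.10 and 5.97 in NB1691, and 6.25 and 9.18 in SKNBE2. SKNBE2 thus held the highest of the 8 values under ciclopirox and, under vehicle, the lowest of the vehicle arrays. The change was 2.93 in SKNBE2, -1.13 in NB1691, -0.10 in SKNAS and -0.06 in SKNAS/shHIF1a. A second probe set at a similar level gave 3.26, -1.36, 0.05 and -0.16 in the same order, so the opposite responses of SKNBE2 and NB1691 appeared in both probe sets. The remaining SLC7A11 probe set, near background with a mean of 3.16, gave 1.27 in SKNBE2 and -0.39 in NB1691, but -1.30 in SKNAS/shHIF1a. The mean over lines was 0.41 ± 0.63 (SE, n = 4 lines, limma adjusted p = 0.770) and turned to -0.43 without SKNBE2. No pair of lines differed in SLC7A11 beyond its spread.

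Genes of the ATF4 stress pathway, which also regulates SLC7A11, were measured beside it. Of 5 listed genes of that axis, 0 passed the adjusted test. At an unadjusted p under 0.05, 3 of 5 were higher, against 7.67% of all genes tested. The stress factor gene DDIT3 was higher by 1.93 in SKNBE2, 0.66 in NB1691, 0.41 in SKNAS and 1.03 in SKNAS/shHIF1a. ATF3 was higher by 1.72, 0.25, 1.39 and 0.78 in the same order. Named after its values were seen, CHAC1, a glutathione-degrading enzyme gene of another list, had 3.10, -0.90, 0.35 and -0.17 in that order. The pseudokinase gene TRIB3, likewise a later choice, had 2.29, 0.49, 0.57 and 0.23. Of the other axis genes, also later choices, ATF4 had 0.57, 0.42, -0.32 and -0.07, and ASNS 1.52, 0.41, 0.01 and -0.30. SLC3A2, the heavy chain that partners SLC7A11 and also a later choice, was higher in all 4 lines, by 0.60 in SKNBE2 and 1.21 in NB1691, where SLC7A11 was lower (mean 0.80 ± 0.15, SE, n = 4 lines, limma adjusted p = 0.139).

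GCLC and GCLM encode the catalytic and the modifier subunit of glutamate-cysteine ligase, which makes the first bond of glutathione. NB1691 and SKNBE2 had the higher GCLC levels and the SKNAS-derived lines the higher GCLM levels. GCLC had levels under vehicle and ciclopirox of 9.80 and 9.79 in NB1691, 8.91 and 9.30 in SKNBE2, 8.50 and 8.21 in SKNAS, and 8.35 and 8.65 in SKNAS/shHIF1a. NB1691 was above every other line on both of its arrays. It exceeded SKNAS by 1.44 ± 0.22 (SE, 2 arrays per line, limma adjusted p = 0.00426) and SKNAS/shHIF1a by 1.30 ± 0.22 (adjusted p = 0.00638). With the mean of the GCLC probe sets, one of them near background, the first was 0.72 (limma adjusted p = 0.0139) and SKNAS/shHIF1a minus NB1691 was -0.56 (adjusted p = 0.0308). SKNBE2 exceeded SKNAS by 0.75 ± 0.22 (limma adjusted p = 0.046), a call that ended without any 1 of the 8 arrays (adjusted p = 0.0586 to 0.300) and with the mean of the probe sets (adjusted p = 0.0957).

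GCLM was at 9.01 and 9.08 in SKNAS, 9.35 and 10.03 in SKNAS/shHIF1a, 7.46 and 7.35 in NB1691, and 7.91 and 6.51 in SKNBE2. The SKNAS-derived arrays were all above the others. SKNAS/shHIF1a exceeded NB1691 by 2.28 ± 0.47 (SE, 2 arrays per line, limma adjusted p = 0.0126) and SKNBE2 by 2.48 ± 0.47 (adjusted p = 0.0111). SKNAS exceeded NB1691 by 1.64 ± 0.47 (adjusted p = 0.037) and SKNBE2 by 1.84 ± 0.47 (adjusted p = 0.0304). All 4 GCLM calls depended on single arrays. SKNAS against NB1691 lost its call without either array of either line, with a limma adjusted p of 0.122 to 0.201. SKNAS against SKNBE2 lost it without either SKNAS array (0.112 and 0.185), the ciclopirox array of SKNBE2 (0.109) or either NB1691 array (0.0504). SKNAS/shHIF1a against NB1691 lost it without its own ciclopirox array (0.0704) or either NB1691 array (0.0600 and 0.0607), and against SKNBE2 without its own ciclopirox array (0.0611). With the mean of the probe sets NB1691 minus SKNAS was -1.08 (limma adjusted p = 0.0917) and SKNBE2 minus SKNAS -1.40 (0.0506).

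Ciclopirox went with different shifts in each subunit. GCLM was lower in SKNBE2 (-1.41), near its vehicle level in NB1691 (-0.10) and SKNAS (0.08), and higher by 0.69 in SKNAS/shHIF1a. The other GCLM probe sets gave -0.95 and -1.03 in SKNBE2, and 0.83 and 0.72 in SKNAS/shHIF1a. In the other lines the sign depended on the probe set, with -0.12 and -0.10 in SKNAS and -0.09 and 0.31 in NB1691. The mean over lines was -0.19 ± 0.33 (SE, n = 4 lines, limma adjusted p = 0.798) and 0.22 without SKNBE2. GCLC was higher in SKNBE2 (0.38), where GCLM was lower, and in SKNAS/shHIF1a (0.31), unchanged to 2 decimals in NB1691 (0.00), and lower in SKNAS (-0.29). In SKNBE2 the next GCLC probe set gave -0.19, so the sign there was not shared.

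**Figure D3:**
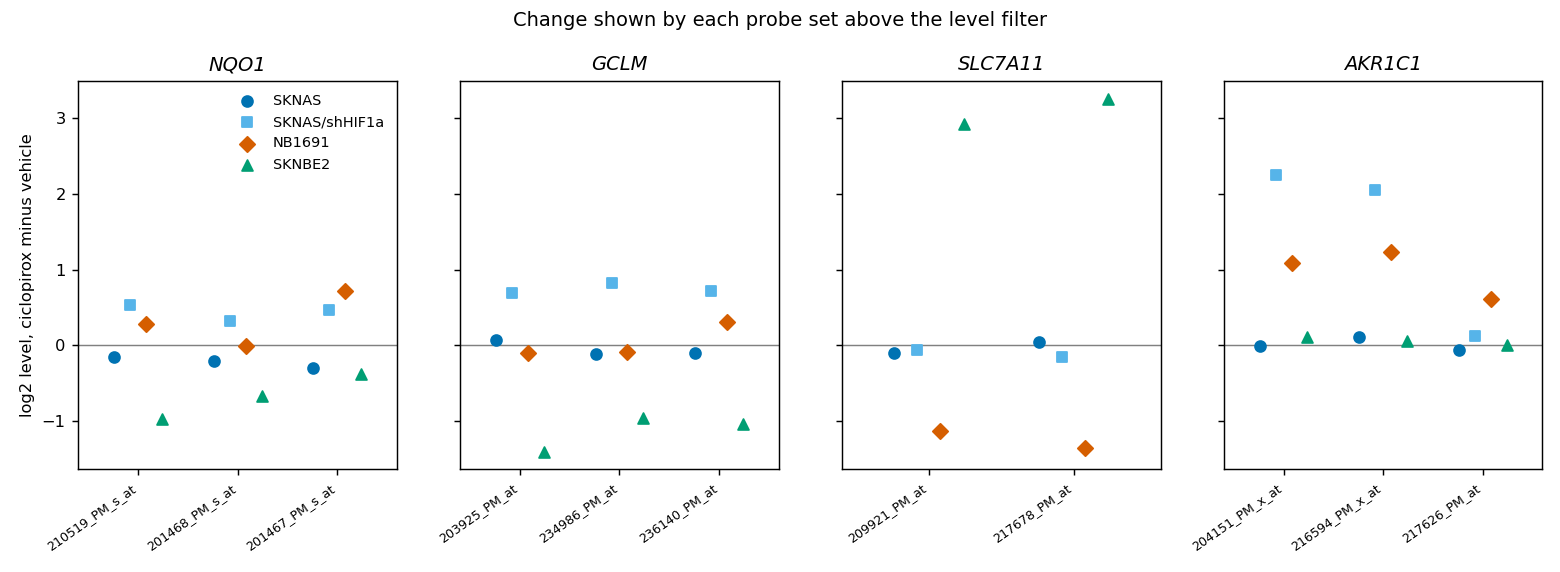
Difference in log2 level between ciclopirox and vehicle for every probe set above the level filter of NQO1, GCLM, SLC7A11 and AKR1C1. Symbols are the 4 lines. The GCLM probe sets are all below 0 in SKNBE2 and all above 0 in SKNAS/shHIF1a but differ in sign in the other lines, and the dimmest AKR1C1 probe set shows 0.12 in SKNAS/shHIF1a where the others show 2.25 and 2.06.

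TXNRD1 and SRXN1 serve the thioredoxin arm, the first by reducing thioredoxin and the second by repairing over-oxidised peroxiredoxin. TXNRD1 was at 11.24 and 11.24 in SKNAS, 11.33 and 12.06 in SKNAS/shHIF1a, 11.71 and 11.70 in NB1691, and 11.62 and 11.40 in SKNBE2 under vehicle and ciclopirox. Its range over the 8 arrays was 0.82, the narrowest of the 10 genes, and no pair of lines differed beyond the spread. The change was 0.72 in SKNAS/shHIF1a, 0.00 in SKNAS, -0.02 in NB1691 and -0.23 in SKNBE2. The mean was 0.12 ± 0.18 (SE, n = 4 lines, limma adjusted p = 0.766), and -0.08 without SKNAS/shHIF1a.

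SRXN1 levels were 8.47 and 8.11 in SKNAS, 8.30 and 8.88 in SKNAS/shHIF1a, 7.53 and 6.86 in NB1691, and 7.36 and 7.24 in SKNBE2. As with NQO1 and GCLM, each SKNAS-derived array exceeded each array of the other lines. SKNAS/shHIF1a was above NB1691 by 1.40 ± 0.31 (SE, 2 arrays per line, limma adjusted p = 0.016) and above SKNBE2 by 1.30 ± 0.31 (adjusted p = 0.0244), and SKNAS was above NB1691 by 1.10 ± 0.31 (adjusted p = 0.0347). These calls also depended on single arrays. The first ended without the ciclopirox array of NB1691 (limma adjusted p = 0.0865) or of SKNAS/shHIF1a (0.0742). The second ended without either SKNBE2 array (0.114 and 0.120), the ciclopirox array of SKNAS/shHIF1a (0.117) or either SKNAS array (0.0518). The third ended without either SKNAS array (0.190 and 0.121), the ciclopirox array of NB1691 (0.175) or either SKNBE2 array (0.0645). Under ciclopirox SRXN1 was higher by 0.58 in SKNAS/shHIF1a and lower in the other 3 lines (-0.36 in SKNAS, -0.67 in NB1691 and -0.12 in SKNBE2). The mean was -0.14 ± 0.22 (SE, n = 4 lines, limma adjusted p = 0.770), and 0.04 without NB1691.

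AKR1C1 reduces steroids and lipid-derived carbonyls. Its levels under vehicle and ciclopirox were 7.91 and 7.91 in SKNAS, 7.28 and 9.54 in SKNAS/shHIF1a, 7.86 and 8.94 in NB1691, and 8.30 and 8.42 in SKNBE2. SKNAS/shHIF1a therefore held both the lowest and the highest of the 8 values, and no pair of lines differed in the mean of their arrays. The mean change was 0.86 ± 0.39 (SE, n = 4 lines, limma adjusted p = 0.307), with a 95% interval of -0.08 to 1.81, and 0.40 without SKNAS/shHIF1a. The next probe set gave 2.06 in SKNAS/shHIF1a, 1.23 in NB1691, 0.11 in SKNAS and 0.06 in SKNBE2. Both are of the kind whose probes can bind related transcripts. AKR1C2, whose brightest probe set is of that kind too, had changes of 1.83 in SKNAS/shHIF1a and 1.27 in NB1691, so signals of these near-identical genes cannot be told apart here. AKR1C3, named after its values were seen, had 0.40 and 1.27. The dimmest AKR1C1 probe set above the filter, with a mean level of 3.55, gave 0.12 and 0.61. The remaining AKR1C1 probe sets lay below the filter and gave -0.01 and -0.38 in SKNAS/shHIF1a.

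GSTP1, a glutathione transferase gene that is highly expressed in many tumours, showed the widest range of the 10 genes, 8.03. Its levels under vehicle and ciclopirox were 9.33 and 9.08 in SKNAS, 10.06 and 9.52 in NB1691, 11.45 and 11.12 in SKNBE2, and 3.41 and 3.85 in SKNAS/shHIF1a. The derivative stood apart from all other arrays, brighter than 48.6% and 55.2% of all probe sets on its arrays, where in the parent it was brighter than 92% and 90.8%. The vehicle value was below the array median of 3.47, so GSTP1 was near background there, which limits how large a difference these arrays can show. SKNBE2 also exceeded SKNAS by 2.08 ± 0.26 (SE, 2 arrays per line, limma adjusted p = 0.00262) and NB1691 by 1.49 ± 0.26 (adjusted p = 0.011). The latter call ended without either SKNBE2 array or the ciclopirox array of NB1691 (limma adjusted p = 0.0571 to 0.0775). Under ciclopirox GSTP1 was lower in SKNAS (-0.25), NB1691 (-0.55) and SKNBE2 (-0.33), and 0.43 higher in SKNAS/shHIF1a, between values near background (mean -0.17 ± 0.18, SE, n = 4 lines, limma adjusted p = 0.656).

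HMOX1 encodes haem oxygenase 1, which releases iron, carbon monoxide and biliverdin from haem and is a target of NRF2, of its competitor BACH1 and of hypoxia-inducible factor. Levels under vehicle and ciclopirox were 5.98 and 6.31 in SKNAS, 6.91 and 7.62 in SKNAS/shHIF1a, 4.46 and 4.83 in NB1691, and 4.41 and 4.88 in SKNBE2. The 4 changes were 0.33, 0.72, 0.38 and 0.47 in that order, all positive and all under 2-fold. The mean of 0.47 ± 0.12 (SE, n = 4 lines) had a 95% interval of 0.17 to 0.78 but did not pass over all genes (limma adjusted p = 0.177). With the brightest probe set of each gene, a higher level in all 4 lines was found for 1 of the 10 genes and for 11.8% of all genes tested. With lines left out 1 at a time the HMOX1 mean stayed between 0.39 and 0.52. Under the other alternatives, SKNAS averaged with its derivative among them, it stayed between 0.46 and 0.51. Between lines, SKNAS exceeded NB1691 by 1.50 ± 0.18 (SE, 2 arrays per line, limma adjusted p = 0.0017) and SKNBE2 by 1.49 ± 0.18 (adjusted p = 0.00204). SKNAS/shHIF1a exceeded NB1691 and SKNBE2 by 2.62 ± 0.18 each (adjusted p = 0.00022 and 0.000266). NB1691 and SKNBE2 did not differ beyond their spread.

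The third comparison asked how the knockdown derivative differed from its parent. Of the 10 genes 1 was lower, GSTP1, and 1 higher, HMOX1, where 0.84% and 0.744% of all genes tested were lower and higher. GSTP1 had a derivative minus parent difference of -5.92 under vehicle and -5.24 under ciclopirox, a fitted difference of -5.58 ± 0.26 (SE, 2 arrays per line, limma adjusted p = 0.00116). Its size is limited by the background level of GSTP1 in the derivative. HMOX1 was higher by 0.93 under vehicle and 1.32 under ciclopirox, 1.12 ± 0.18 in the fit (limma adjusted p = 0.0461). The HMOX1 call ended without any 1 of the 4 arrays of the compared lines (adjusted p = 0.0983 to 0.427), in a fit of those 4 arrays alone (adjusted p = 0.0676) and with an intensity trend (adjusted p = 0.0904), whereas that of GSTP1 held in each of these (limma adjusted p = 0.00032 to 0.0389). GCLM (0.64 ± 0.47), SLC7A11 (0.85 ± 0.89), TXNRD1 (0.46 ± 0.26), SRXN1 (0.30 ± 0.31), AKR1C1 (0.50 ± 0.55), GCLC (0.15 ± 0.22), NFE2L2 (0.11 ± 0.18) and NQO1 (-0.52 ± 0.36) did not pass.

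**Figure D4:**
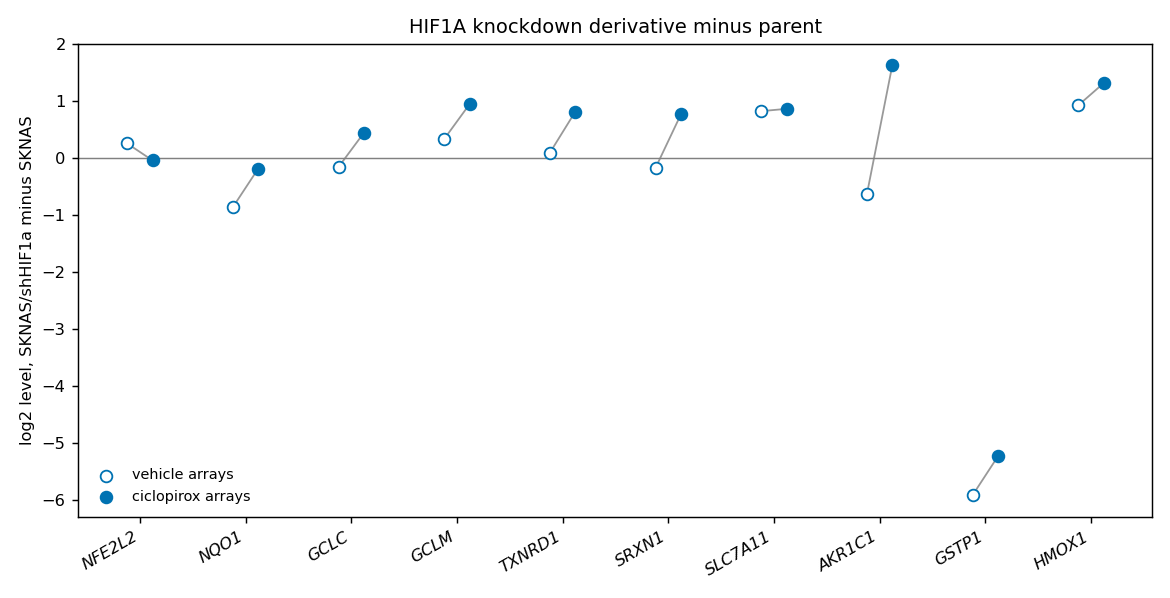
Difference in log2 level between SKNAS/shHIF1a and SKNAS for the 10 genes, on the vehicle arrays (open) and on the ciclopirox arrays (filled). GSTP1 lies at -5.92 and -5.24, and for 9 of the 10 genes the filled symbol is above the open symbol. Each gene is shown by its brightest probe set, and for SLC7A11 and NFE2L2 this order depended on the probe set.

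The ciclopirox change was also compared between the derivative and its parent. The response of SKNAS/shHIF1a minus that of SKNAS was positive for 9 of the 10 genes, with a median of 0.64, against 50.4% of all genes tested and a median of 0.00. It was 2.26 for AKR1C1, 0.94 for SRXN1, 0.72 for TXNRD1, 0.68 for NQO1 and GSTP1, 0.61 for GCLM, 0.60 for GCLC, 0.39 for HMOX1, 0.04 for SLC7A11 and -0.30 for NFE2L2. Each is a difference of 4 arrays with no replicate, so these values carry no test. The value for GSTP1 includes a derivative change between levels near background. For NQO1 and GSTP1, which were lower in the derivative under vehicle (-0.86 and -5.92), the gap was smaller under ciclopirox (-0.18 and -5.24). AKR1C1, SRXN1 and GCLC were also lower in the derivative under vehicle (-0.63, -0.17 and -0.15) but higher under ciclopirox (1.63, 0.77 and 0.45). NFE2L2 went from 0.26 to -0.04. The fitted differences of AKR1C1, SRXN1, GCLC and NFE2L2 thus average over opposite signs. For NQO1 the other probe sets gave changes of 0.32 and 0.47 in the derivative, and -0.20 and -0.30 in the parent. For SLC7A11 the next probe set gave -0.16 in the derivative and 0.05 in the parent, and the dimmest -1.30 and 0.09. An NFE2L2 probe set other than that used gave -0.18 and -0.25. The sign of the response difference thus depended on the probe set for SLC7A11 and NFE2L2.

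GSTP1 is the member for which the derivative and its parent differed most, and its promoter is shown as context for that difference. The 250 bases before the transcription start are printed, GRCh38.p14 chr11:67583562-67583811, plus strand, as given by RefSeq. Capitals mark a match to the core of the antioxidant response element, TGACNNNGC, searched on both strands.

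GSTP1: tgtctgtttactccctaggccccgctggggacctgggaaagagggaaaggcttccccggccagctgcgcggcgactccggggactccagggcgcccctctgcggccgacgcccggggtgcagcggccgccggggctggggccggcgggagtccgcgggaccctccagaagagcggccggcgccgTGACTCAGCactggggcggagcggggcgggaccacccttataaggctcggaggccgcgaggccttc

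The match runs from -66 to -58 relative to the start and also contains the AP-1 motif TGACTCA. The RefSeq window, which runs 50 bases past the start, holds 36 CpG dinucleotides, more than 87.3% of all such windows, and DNA methylation was not measured on these arrays. The 3 tested genes on each side of GSTP1 in the RefSeq order were looked at after its values were seen. CDK2AP2 and NDUFV1, its nearest tested neighbours, had derivative minus parent differences of -0.23 ± 0.19 and -0.13 ± 0.18 (SE, 2 arrays per line), and the 6 neighbours ran from -0.23 to 0.30 with 0 called in limma (smallest adjusted p 0.576). ACY3 and UNC93B1 were at 3.27 and 3.80 in the parent under vehicle, near background, so they could show little of a decrease. The other neighbours did not share the difference of GSTP1, and its cause was not tested.

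Promoter windows were held by the RefSeq table for 8 of the 10 genes, 10 windows in all, since NFE2L2 and TXNRD1 have a pair of starts each. The motif was found in 4 of the 10 windows, belonging to GSTP1, GCLM and TXNRD1, and in 13.3% of 35114 windows of all genes. A further TXNRD1 match, across its upstream start, is not printed. The stretches around the other matches are shown for GCLM and TXNRD1, the other members that hold the motif. Capitals again mark the motif, as GCNNNGTCA where it lies on the opposite strand.

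GCLM (chr1:93909456-93909464 for the match, gene on the minus strand): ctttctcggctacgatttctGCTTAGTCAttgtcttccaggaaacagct

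TXNRD1, upstream start (chr12:104215680-104215688, plus strand): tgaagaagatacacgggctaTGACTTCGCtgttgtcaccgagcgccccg

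TXNRD1, downstream start (chr12:104286930-104286938, plus strand): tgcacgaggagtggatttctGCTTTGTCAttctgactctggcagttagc

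A match is a description of the letters and not evidence of binding. The windows of NQO1, GCLC, SRXN1, AKR1C1 and NFE2L2 held no match within their 300 bases.

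The wider pathway was followed in 10 lists with 116 genes, of which 110 were on the array and 99 were tested. In the ciclopirox comparison 0 of the 99 passed (0% of all genes), and at an unadjusted p under 0.05 12 were higher and 15 lower, against 7.67% and 10.2% of all genes tested. The median change was -0.03.

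Regulators of NRF2 went both ways. Of 10 tested, 4 were higher and 2 lower at an unadjusted p under 0.05, against 7.67% and 10.2% of all genes tested. The median change was 0.28. The small MAF gene MAFF had changes of 1.87 in SKNAS, 2.16 in SKNAS/shHIF1a, 1.19 in NB1691 and -0.52 in SKNBE2 (limma adjusted p = 0.257). SQSTM1, an autophagy receptor that binds KEAP1, followed the same order of signs with 1.29, 1.78, 0.69 and -0.42 (limma adjusted p = 0.293). Named after their values were seen, MAFG and the related factor gene NFE2L1 were higher in all 4 lines with means of 0.58 and 0.54, and BACH1 likewise with 0.32. RBX1, which works with KEAP1 in the ubiquitin ligase, and PALB2, a KEAP1-binding protein gene, were lower in all 4 lines. Their means were -0.39 and -0.31, and KEAP1 had a mean of -0.04. RBX1, PALB2 and KEAP1 were also named after their values were seen.

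Glutathione transferase genes leaned downward. The median of 15 tested was -0.28, 5 were lower and 0 higher in all 4 lines, and 4 were lower at an unadjusted p under 0.05. Over all genes tested, 16% were lower and 11.8% higher in all 4 lines, and 10.2% were lower at an unadjusted p under 0.05. GSTA4, which conjugates hydroxynonenal, was lower in SKNAS (-1.43), SKNAS/shHIF1a (-1.73), NB1691 (-1.03) and SKNBE2 (-0.81), a mean of -1.25 (limma adjusted p = 0.121). GSTM4 had a mean of -0.53 and was lower in all 4 lines (limma adjusted p = 0.185).

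Among 21 tested genes of glutathione synthesis and turnover, 2 were higher and 2 lower at an unadjusted p under 0.05. Over all genes tested these shares were 7.67% and 10.2%. The list had a median change of -0.01. CHAC2, a glutathione-degrading cyclotransferase gene, was lower in all 4 lines, from -0.68 to -1.22 (mean -0.97, limma adjusted p = 0.121). The neutral amino acid carrier gene SLC1A4 had changes of 2.57 in SKNBE2, 0.95 in NB1691, 0.70 in SKNAS and -0.52 in SKNAS/shHIF1a. Between derivative and parent, 1 gene of this list differed, the peroxidase gene GPX7, at 5.999 and 5.12 in the derivative and 8.10 and 7.59 in the parent under vehicle and ciclopirox (-2.28, limma adjusted p = 0.0185). That call ended without either SKNAS array (limma adjusted p = 0.182 and 0.158) or the ciclopirox array of SKNAS/shHIF1a (0.0630).

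In the remaining lists the shifts were small on balance, with medians from -0.08 to 0.06. Of 10 tested aldo-keto, quinone and carbonyl reductases, 2 were lower at an unadjusted p under 0.05, against 10.2% of all genes tested. PIR, an iron-containing NRF2 target, was lower in all 4 lines (mean -1.05, limma adjusted p = 0.153). Of 7 genes of NADPH supply, the hexokinase gene HK1 had a mean of 0.53 and the transaldolase gene TALDO1 one of -0.42. In the thioredoxin list SESN2, a stress-induced sestrin, had a mean of 0.76 and TXNRD3 one of -0.43. Among haem and iron genes the haem carrier gene SLC48A1 had a mean of 0.45 and the ferrochelatase gene FECH one of -0.40. SOD2, the mitochondrial superoxide dismutase, had changes of 1.88 in SKNAS and 2.67 in SKNAS/shHIF1a against -0.06 in NB1691 and -0.65 in SKNBE2, and CAT, the catalase gene, a mean of -0.20. Among conjugation and efflux genes ABCC5 had a mean of 0.55, and UGT1A6 one of 0.50 that lay mostly in SKNAS/shHIF1a (1.88). The glutathione-conjugate pump gene ABCC2 was higher in the derivative than in its parent, at 4.71 and 4.73 against 3.44 and 3.72 (1.14, limma adjusted p = 0.0458), a call that ended without any 1 of these 4 arrays (limma adjusted p = 0.177 to 0.327) and in a fit of those arrays alone (0.0547).

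**Figure D5:**
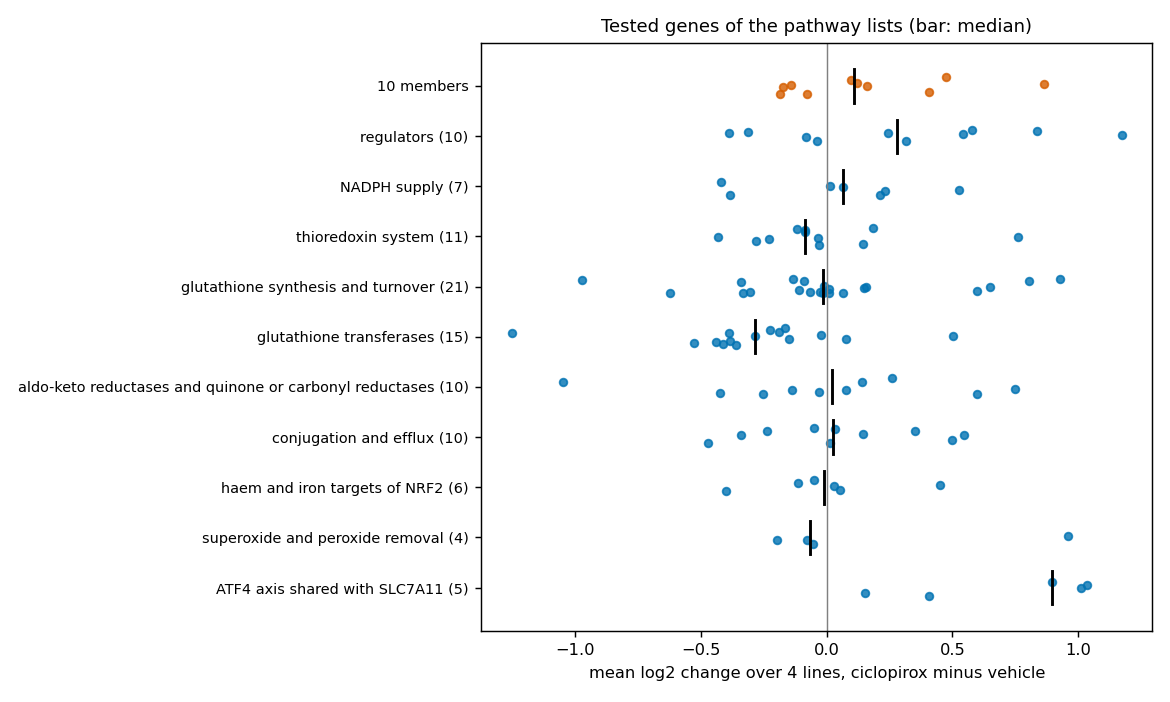
Mean change over 4 lines, ciclopirox minus vehicle on the log2 scale, of the 10 genes (orange) and of the tested genes in each pathway list (blue). Black bars are medians, and numbers of genes tested stand beside the list names. Glutathione transferases have a median of -0.28 and the ATF4 axis 0.89, while the 10 genes centre on 0.11.

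The ciclopirox response was also compared between line origins, SKNAS and SKNAS/shHIF1a against NB1691 and SKNBE2. The latter are grouped only as lines not derived from SKNAS. Of the 10 genes 0 passed (0.0344% of all genes tested did), and 0 passed at an unadjusted p under 0.05, where 11.3% of all genes did. The difference for GCLM was 1.14 ± 0.50 (SE, 2 lines per group, limma adjusted p = 0.480). For the other 9 genes the limma adjusted p was 0.590 or higher. SKNAS/shHIF1a derives from SKNAS, so the lines of that group are not independent.

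For the 3 genes with the widest range, the tested genes with the most similar pattern over the 8 arrays were identified by Pearson correlation, as a description over arrays that share lines. GSTP1 was most like INSM2 (r = 0.994), TFAP2B (0.974) and GATA2 (0.971). In SKNAS/shHIF1a INSM2 was at 3.04 and 2.57 and TFAP2B at 2.65 and 2.65, against 9.87 and 8.66, and 9.62 and 7.96, in the parent. GATA2 was at 7.67 and 7.43 in the derivative and 9.75 and 9.35 in the parent. NQO1 was most like PJVK (r = 0.994), C19orf53 (0.993) and TOM1L1 (0.991), the last at 8.99 to 9.27 on the SKNAS-derived arrays and 4.86 to 6.16 on the others. GCLM was most like PSMD4 (r = 0.975), UBTD1 (0.974) and PSME4 (0.973).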

How the data were processed

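The authors deposited RMA expression values (log2) for 8 arrays, per the submitters' processing notes. The version of RMA is not given in the sources used here. The array has 54715 probe sets, among them 102 controls. GEO's platform annotation names 1 symbol for 40914, several for 864 and none for 12835. Where several probe sets named a gene, the one with the highest mean was used, and genes with a mean below log2 3.21 (percentile 40 of probe sets) were not tested.

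Fits were made with limma 3.58.1 in R 4.3.3, two-sided, with Benjamini-Hochberg adjustment over all 14517 genes and a threshold of 0.05. For ciclopirox against vehicle the line was the block, leaving 3 residual degrees of freedom with 2.98 added by limma's prior. The labels pair the treatments through the line, and paired arrays deviated together from their group means (Pearson r across genes 0.817 to 0.898). Differences between lines alone would give such correlations, so they are no separate evidence of pairing. Lines were compared in 1 fit over all arrays with treatment as a covariate, and line origins on the 4 within-line changes (2 residual degrees of freedom). The fits were run on simulated data with known changes and errors drawn independently for each array. Apart from the changes put in, simulated lines did not differ in response, and SKNAS and its derivative shared no error. How the fits behave with such features was therefore not tested.

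The 10 genes, the lists and the tests were chosen with earlier results of these data known. Named from each list were the 2 genes with the largest mean change and up to 3 past a test, and any other gene is marked in the text as a later choice. Alternatives were other filters, probe set means, quantile normalization, median centring, an intensity trend, a threshold of 0.1 and no cell line block. Others were averaging SKNAS with its derivative for the ciclopirox comparison, and leaving out lines or arrays.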

Additional observations from a re-analysis of the deposited data

Results flagged for a closer look

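In GCLM and TXNRD1 the ciclopirox change had one sign in both SKNAS-derived lines and the opposite sign in NB1691 and SKNBE2. The SKNAS-derived mean exceeded the other by 1.14 for GCLM (0.08 and 0.69 against -0.10 and -1.41) and by 0.48 for TXNRD1 (0.00 and 0.72 against -0.02 and -0.23). Neither difference passed the limma test over all genes (adjusted p = 0.480 and 0.627), and several of these changes lie close to 0. The GCLM pattern held for 1 of its 3 probe sets, since the other probe sets were at -0.12 and -0.10 in SKNAS and one of them at 0.31 in NB1691.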

How the results depend on the processing

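The count of the 10 genes called for ciclopirox, and that for the difference by line origin, was 0 under every alternative run, including no replicate block (0). For SKNAS/shHIF1a against SKNAS the count of 2 became 1 with an intensity trend, 1 in the fit of 4 arrays, and 1 without any array of these lines. With single arrays left out, the counts ran from 3 to 5 for NB1691 against SKNAS, 4 to 6 for SKNBE2 against SKNAS, 1 to 2 for SKNBE2 against NB1691, 4 to 7 for SKNAS/shHIF1a against NB1691 and 4 to 6 against SKNBE2. Mean ciclopirox changes that crossed 0 when a line was left out ran from -0.28 to 0.22 for NQO1, -0.48 to 0.22 for GCLM, -0.080 to 0.24 for TXNRD1, -0.38 to 0.036 for SRXN1 and -0.43 to 0.92 for SLC7A11. Derivative minus parent differences that crossed 0 without an array ran from -0.030 to 0.25 for NFE2L2, -0.11 to 0.41 for GCLC, -0.18 to 0.78 for SRXN1 and -0.43 to 1.43 for AKR1C1. None of these was called. The AKR1C1 change in SKNAS/shHIF1a was -0.011 and -0.38 in probe sets below the filter. Over all genes, derivative against parent gave 230 calls, 433 at a threshold of 0.1, 393 in the fit of 4 arrays and 23 to 162 with single arrays left out. By origin there were 5 calls, 13 at a threshold of 0.1 and 0 in limma without any line (1643 genes had an unadjusted p under 0.05 with all lines). The other pairs of lines gave 1659 to 5174 calls without single arrays, against 3640 to 5470 with all. Fits without an array assume that the line's remaining array varies like the others. The cause was not tested. The number of arrays, 1 per line and treatment, limits the precision.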
